A study of Mus musculus with 38 samples.

Results

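The interaction between loss of Snf2h and inhibition of SWI/SNF was measured as a difference of differences in mouse embryonic stem cells. For each gene, the log2 response to the inhibitor BRM014 in wild-type cells was subtracted from the response in an Snf2hko line. The comparison rests on 8 of the 38 libraries of the series, which are all the wild-type and Snf2hko libraries of experimental batch 2457, and no measured value was used to choose them. An interaction above 0, called higher here, means that the gene ended higher in drug-treated Snf2hko cells than its Snf2hko vehicle level and the wild-type response together would place it. An interaction below 0 is called lower.

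All cells had the 129S6/SvEvTac background and grew in serum with leukemia inhibitory factor on gelatin. Wild-type cells with DMSO, the solvent of the drug, for 24 h gave replicates 3 and 4. Wild-type cells with 10 uM BRM014 for 24 h gave replicates 3 and 4, and the Snf2hko line gave replicates 1 and 2 under each of the same 2 treatments. An Ino80ko line of the same batch, with 2 libraries per treatment, shared the estimate of the spread and served as a second comparator. The labels give neither the number of clones behind a line nor how the knockouts were made, and do not say whether 2 replicates came from separate cultures. The p-values therefore measure the spread between these libraries.

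SWI/SNF complexes use the ATPases BRG1 and BRM, encoded by Smarca4 and Smarca2, to slide or evict nucleosomes, and keep many enhancers and promoters open. BRM014 blocks the ATPase activity of both proteins. SNF2H, encoded by Smarca5, is the ATPase of most ISWI complexes, which space nucleosomes into regular arrays, and it is known for its part in the binding of the insulator protein CTCF. The design thus asks whether a cell that lacks one remodeller answers the loss of another in the same way as a cell that has it.

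Total counts over the 8 libraries ran from 21948010, in BRM014 wild-type replicate 4, to 44453556. By correlation of log2 CPM the wild-type pairs were the least alike, at 0.997 under each treatment, against 0.9974 for the BRM014 Snf2hko pair. By chi-square per degree of freedom, the BRM014 Snf2hko replicates differed more than any other pair of the batch, at 24.4 against 6.94 to 15.8. Among the genes named here, Dpysl2 and Dhcr7 show that spread, with treated values of 138 and 101 CPM and of 85.1 and 59.7 CPM. The knockout could not be checked through its target, because Smarca5 was listed at 0 in all 38 libraries. Smarca4 was also listed at 0, as were 32977 of the 55385 rows, among them the stem cell gene Sox2 and the ribosomal protein gene Rpl3, so a listed 0 is not a measured absence in this table. Pou5f1, which encodes the stem cell factor OCT4, stood at 1612 and 1408 CPM (read counts relative to the library total after TMM scaling) in vehicle wild-type cells and 1368 and 1547 CPM in vehicle Snf2hko cells, with no called difference. The 15 testable core pluripotency genes had a median start of -0.34 on the log2 scale, and their summed level was 14810 and 14120 CPM in vehicle wild-type cells and 11230 and 11740 CPM in vehicle Snf2hko cells. The Snf2hko line was higher in primitive endoderm markers, whose summed level was 3892 and 3588 CPM in vehicle wild-type cells and 13350 and 13970 CPM in vehicle Snf2hko cells. All 14 testable markers of that lineage had a start level above wild type, with a median of 2.29 on the log2 scale. Pdgfra, Col4a1 and Hnf4a of that list were listed at 0. In bulk RNA, more cells of a type and more RNA per cell cannot be told apart.

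The interaction was large across the transcriptome. Of 13130 genes tested, 4281 (32.6%) were called at an adjusted p under 0.05 by edgeR's quasi-likelihood test with Benjamini-Hochberg adjustment. Of the tested genes, 2079 (15.8%) were higher and 2202 (16.8%) were lower, and the median over all tested genes was 0.007 on the log2 scale. A change of at least 2-fold was reached by 631 of the higher calls and 761 of the lower ones. For genes with a mean log2 CPM of at least 2, the median half-width of the 95% interval was 0.26 before adjustment for the number of tests.

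More genes passed the test of the BRM014 response in the knockout line than in wild type. The response passed the same test for 7470 genes (56.9%) in Snf2hko and for 5554 (42.3%) in wild type, and it was at least 2-fold for 2552 and 1628 of them. Among the 4281 interaction calls, 1807 (42.2%) responded in Snf2hko alone, 793 in wild type alone, 776 in the same direction but more in Snf2hko, and 296 in the same direction but less. A further 521 (12.2%) moved in opposite directions in the 2 genotypes, and 88 passed in neither. Inhbb, which encodes an activin subunit, is an example of a smaller loss and Vcam1, a cell adhesion receptor, of a smaller gain (responses of 6.20 in wild type and 3.26 in Snf2hko), while Tgm1, a transglutaminase of the epidermal envelope, fell further in Snf2hko. Vcam1 went from 0.0762 and 0.16 to 9.26 and 8.85 CPM in wild type and from 1.55 and 1.85 to 16 and 16.8 CPM in Snf2hko, so that in CPM its gain was larger in Snf2hko, by 5.75 CPM.

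**Figure D1:**
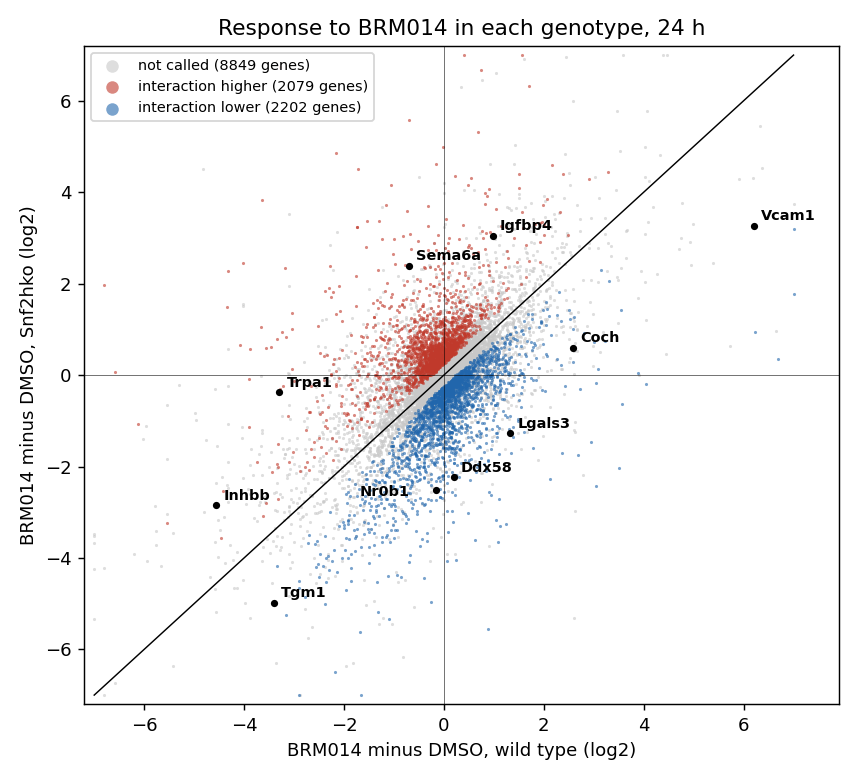
Each point is one of the 13130 tested genes, with its log2 response to 24 h of BRM014 in wild type on the x axis and in Snf2hko on the y axis, values beyond 7 being drawn at 7. Red points (2079) are higher and blue points (2202) lower in the interaction, the diagonal marks equal responses, and Lgals3 and Sema6a sit in quadrants of opposite direction.

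Since an interaction can follow from where a gene starts, the calls were split by the vehicle level of Snf2hko against wild type. That start level itself differed for 7425 genes (56.5%), 3793 above and 3632 below wild type. A start was called alike where it was not called and its 95% interval lay inside 1.5-fold, which held for 3067 genes. The remaining 2638 genes had a start that was not called but too loosely measured to be called alike, and are termed unsettled. The start and the interaction share the 4 DMSO libraries, so the signs of the 2 are not independent.

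At an adjusted p under 0.05, genes that started alike were called about as often as genes that started higher. The interaction was called for 1114 of the 3067 genes that started alike (36.3%), of which 562 were higher and 552 lower. It was called for 1365 of the 3793 genes that started higher (36%), of which 411 were higher and 954 lower. Among the 3632 genes that started lower it was called for 1476 (40.6%), 911 higher and 565 lower, and among the unsettled genes for 326 (12.4%). The median size of the called interactions was 0.55 for alike starts, 0.72 for higher starts and 0.69 for lower starts on the log2 scale. Calls of at least 2-fold were rarer among alike starts, at 184 of 3067 genes. They numbered 442 of 3793 for higher starts and 476 of 3632 for lower starts. By these counts, most called genes with an altered start had an interaction of the sign opposite to the start, and the alike class was split evenly. Since the DMSO libraries are shared, opposite signs are favoured by the design, and these sign counts are not read as a result. The alike class requires a tight interval and so holds well-measured genes. The primitive endoderm expression of the line moved with the start level, and its part in the classes was not tested.

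Because a chance high value in a Snf2hko DMSO library raises the start and lowers the interaction at once, the split was repeated with start and interaction taken from different DMSO libraries, an alternative added after the data were seen. With the start taken from DMSO wild type 3 and Snf2hko 1, 71.2% of the calls with a higher start were lower in the interaction, and with wild type 4 and Snf2hko 2 the share was 65.7%, against 69.9% with all libraries. For lower starts the share of lower interactions was 47.1% and 43.8%, against 38.3% with all libraries. In the alike class 49.6% and 48.1% were lower. These fits also used fewer DMSO libraries for each quantity and gave fewer calls, and the part of the shared libraries in the change of the shares was not tested. Under drug, 8121 genes (61.9%) differed between the lines.

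**Figure D2:**
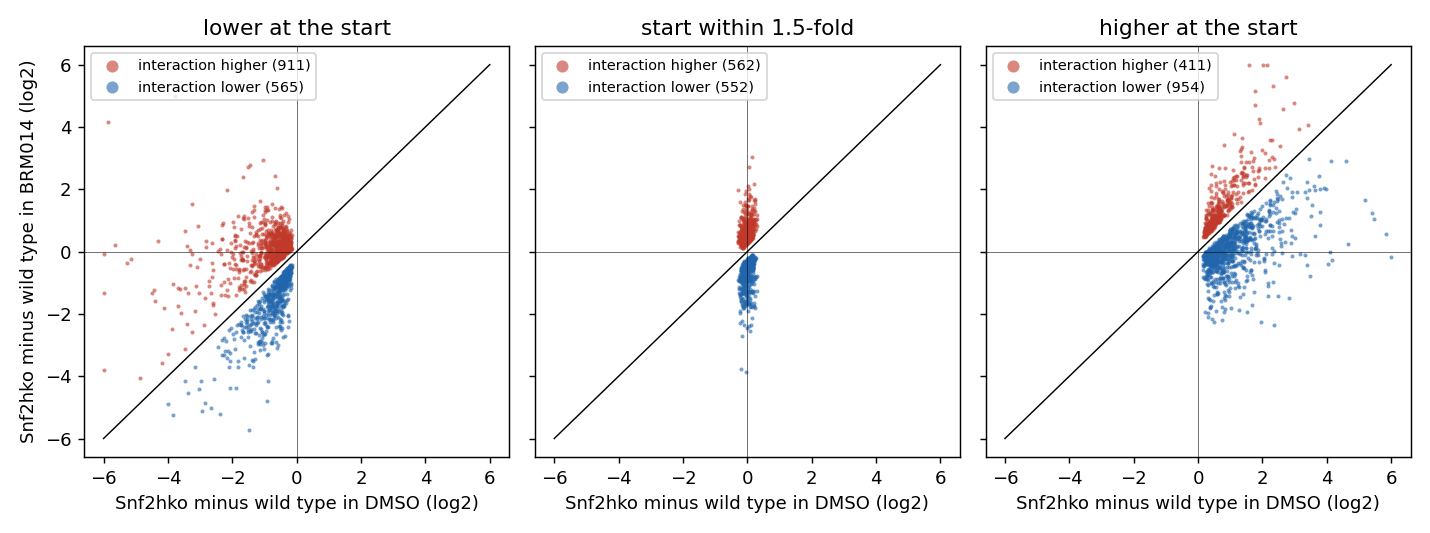
For the interaction calls of 3 start classes, the x axis gives the Snf2hko minus wild-type difference in DMSO and the y axis the same difference in BRM014, both log2, with values beyond 6 drawn at 6. Points above the diagonal are higher in the interaction (red) and points below are lower (blue), with 911 and 565 genes for lower starts, 562 and 552 for alike starts and 411 and 954 for higher starts.

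The scale matters where starts differ, since equal fold changes then give unequal differences in CPM. Taken on linear CPM, 149 of the 4281 calls (3.48%) had the opposite sign. Only 2 of these started alike, while 57 had a higher start (4.18% of that class's calls) and 87 a lower start (5.89%).

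The genes with an alike start and a higher interaction were led by 5 that lost expression in wild type and lost far less of it, or gained, in Snf2hko. Trpa1, a cation channel that senses irritants, stood at 7.62 and 7.63 CPM in vehicle and 0.722 and 0.862 CPM in BRM014 in wild type, and at 8.57 and 8.16 CPM in vehicle and 6.25 and 6.61 CPM in drug in Snf2hko. Among the wild-type and Snf2hko groups, only the treated wild-type pair was low, and it overlapped no other. The response of Trpa1 was -3.29 in wild type and -1.80 in the Ino80ko line, a difference that also passed (edgeR adjusted p = 0.00208). The interaction of Trpa1 was 2.92 ± 0.27 (SE) on the log2 scale (edgeR adjusted p = 8.61e-08). Npr3, the clearance receptor for natriuretic peptides, went from 9.30 and 10.5 to 1.74 and 2.09 CPM in wild type, and from 7.91 and 8.24 to 6.66 and 8.24 CPM in Snf2hko (interaction 2.29 ± 0.22, edgeR adjusted p = 2.2e-07). Card10, a scaffold protein upstream of NF-kB, showed the same pattern, at 13.6 and 13.1 CPM in vehicle and 3.59 and 3.50 CPM in drug in wild type and 15.8 and 12.4 CPM in vehicle and 14.8 and 9.62 CPM in drug in Snf2hko (interaction 1.70 ± 0.25, edgeR adjusted p = 4.78e-05). For these 3 genes the larger change was in wild type: the Snf2hko response was -0.38, -0.11 and -0.22, of which the one of Trpa1 passed the test.

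Dpysl2 and Grk5 instead moved in opposite directions from an alike start. Dpysl2, a microtubule regulator of growing axons, was at 61.5 and 61.1 CPM in vehicle wild-type cells and 25.9 and 27.3 CPM after BRM014, but at 72 and 68.6 CPM in vehicle and 138 and 101 CPM in drug in Snf2hko (interaction 1.97 ± 0.15, edgeR adjusted p = 3.11e-08). The 2 treated Snf2hko libraries were apart from each other but both above every other library. Grk5, a kinase that switches off G protein-coupled receptors, was at 8.46 and 8.02 CPM in vehicle and 6.15 and 5.49 CPM in drug in wild type, and at 8.32 and 8.59 CPM in vehicle and 22.5 and 19.4 CPM in drug in Snf2hko (interaction 1.79 ± 0.17, edgeR adjusted p = 2.08e-07). The fall of Grk5 in wild type was not seen in the wild-type libraries of batch 2450, described further on, where the response was 0.28 (edgeR adjusted p = 0.169) and the interaction 1.03. In all, 128 of the 1114 calls with an alike start were of this opposite kind.

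The 4 genes named for an alike start and a lower interaction fell in Snf2hko much more than in wild type. Of the 552 genes of that kind, 220 responded in Snf2hko alone, 99 in the same direction but more in Snf2hko, 67 in opposite directions and 108 in wild type alone. Ddx58, which encodes the viral RNA sensor RIG-I, was at 35.9 and 38.8 CPM in vehicle and 40.7 and 45 CPM in BRM014 in wild type. In Snf2hko it went from 37.5 and 36.5 CPM to 7.74 and 7.95 CPM (interaction -2.43 ± 0.12, edgeR adjusted p = 3e-10). The treated Snf2hko pair was low, and the 6 other libraries lay close together. Ripk3, a kinase of necroptotic cell death, was at 21.7 and 17.9 CPM in vehicle and 20.2 and 19.3 CPM in drug in wild type, and at 18.4 and 17.1 CPM in vehicle and 2.46 and 3.53 CPM in drug in Snf2hko (interaction -2.56 ± 0.19, edgeR adjusted p = 1.48e-08). Again only the treated Snf2hko libraries stood apart.

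In Calca and Tcl1 the drug lowered expression in both genotypes and lowered it more in the knockout. Calca, the gene of calcitonin and its related peptide, was at 8.99 and 8.73 CPM in vehicle wild-type cells and 4.36 and 5.54 CPM after BRM014, and fell from 7.32 and 8.03 CPM to 0.271 and 0.43 CPM in Snf2hko (interaction -3.55 ± 0.32, edgeR adjusted p = 3.13e-08). Tcl1, a coactivator of AKT that is high in naive stem cells, had 61.7 and 54.7 CPM in vehicle and 42.1 and 38.3 CPM in drug in wild type, and 60.9 and 64.5 CPM in vehicle and 6.98 and 8.81 CPM in drug in Snf2hko (interaction -2.45 ± 0.14, edgeR adjusted p = 1.28e-09). Among the wild-type and Snf2hko groups, the treated Snf2hko values overlapped no other group in either gene. In the Ino80ko line the responses of Calca and Tcl1 were -2.39 and -1.07.

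Promoters of alike-start genes are shown because their vehicle levels were alike, so that the lines differed in the treated libraries. In each direction, the first 2 of the named genes with 1 RefSeq promoter entry are given, as the 250 bases before the RefSeq start on the strand of the gene, in build GRCm38.p6. Capitals mark CCCTC, a core of CTCF sites, on either strand (GAGGG), and AGGGGGCG, a stretch within the longer CTCF consensus, on either strand (CGCCCCCT). The motifs can overlap in a promoter, but do not in these 4. Npr3 (chr15:11907372-11907621, minus strand) and Grk5 (chr19:60889499-60889748, plus strand) had higher interactions, and Calca (chr7:114636358-114636607, minus strand) and Ripk3 (chr14:55788858-55789107, minus strand) had lower ones.
Npr3: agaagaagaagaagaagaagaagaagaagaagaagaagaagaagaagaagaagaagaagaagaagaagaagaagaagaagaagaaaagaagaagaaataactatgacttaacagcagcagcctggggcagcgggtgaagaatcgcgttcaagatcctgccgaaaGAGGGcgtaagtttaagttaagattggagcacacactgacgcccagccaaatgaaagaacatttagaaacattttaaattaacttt
Grk5: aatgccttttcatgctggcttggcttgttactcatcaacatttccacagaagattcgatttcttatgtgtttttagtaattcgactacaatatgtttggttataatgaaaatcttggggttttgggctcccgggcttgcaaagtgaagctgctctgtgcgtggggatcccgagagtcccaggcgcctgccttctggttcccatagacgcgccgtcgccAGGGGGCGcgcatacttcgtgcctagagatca
Calca: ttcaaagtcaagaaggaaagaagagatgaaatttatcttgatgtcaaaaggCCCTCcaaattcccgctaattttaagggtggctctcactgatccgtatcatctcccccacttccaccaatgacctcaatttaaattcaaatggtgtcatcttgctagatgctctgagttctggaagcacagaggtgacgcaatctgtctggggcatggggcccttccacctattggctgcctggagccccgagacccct
Ripk3: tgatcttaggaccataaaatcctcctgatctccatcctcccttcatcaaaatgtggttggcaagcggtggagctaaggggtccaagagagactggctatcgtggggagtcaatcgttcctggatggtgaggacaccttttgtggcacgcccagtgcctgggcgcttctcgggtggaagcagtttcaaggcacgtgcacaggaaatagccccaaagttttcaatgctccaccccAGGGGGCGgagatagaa

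The longer stretch occurred once in Grk5 and once in Ripk3, and CCCTC or its complement once in Npr3 and once in Calca. Of the tested genes, 7531 had 1 promoter entry, and CCCTC on either strand was in 70.1% of those promoters. It was in 71.9% of the promoters of genes with a higher interaction and in 72.3% of those with a lower one. AGGGGGCG, searched after the printed promoters had been read, was in 9.81% of all the promoters, in 12.9% of those with a higher interaction and in 9.79% of those with a lower one. Among alike starts it was in 63 of 355 promoters with a higher interaction (17.7%) and in 39 of 333 with a lower one (11.7%). The median GC content was 59.2% for all promoters, 62.4% for the alike and higher ones and 58.8% for the alike and lower ones. The part of GC content in these shares was not tested. A letter match is not a binding site.

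Among genes that started higher in Snf2hko, the 5 leading lower interactions were all reversals in the libraries of batch 2457. Lgals3, which encodes the sugar-binding protein galectin-3, rose in wild type from 24.7 and 25.1 CPM to 65 and 59.7 CPM. In Snf2hko it fell from 31.4 and 36.1 CPM to 13.1 and 14.7 CPM (interaction -2.60 ± 0.13, edgeR adjusted p = 3e-10). The 2 vehicle groups were close, and the treated groups lay on opposite sides of them. Nkx6-2, a homeobox factor of the neural tube, had 6.50 and 6.86 CPM in vehicle and 15.2 and 9.12 CPM in drug in wild type, and 18.8 and 19.5 CPM in vehicle and 3.25 and 3.28 CPM in drug in Snf2hko (interaction -3.45 ± 0.24, edgeR adjusted p = 7.93e-09). Sirpa, the receptor for the signal CD47, had 2.52 and 2.63 CPM in vehicle and 7.15 and 5.86 CPM in drug in wild type and 8.41 and 8.79 CPM in vehicle and 2.81 and 2.51 CPM in drug in Snf2hko (interaction -3.05 ± 0.22, edgeR adjusted p = 1.17e-08). Treated Snf2hko cells thus came close to the vehicle wild-type level of Sirpa, and fell below that of Nkx6-2. With the wild-type libraries of batch 2450, the rise of Sirpa did not pass (0.32, edgeR adjusted p = 0.168), and the size of its interaction was smaller.

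The anion exchanger gene Slc4a3 and Gsdmd, whose product forms the pores of pyroptosis, followed the same course. Slc4a3 was at 14 and 12 CPM in vehicle and 26.9 and 29.4 CPM in drug in wild type, against 25.9 and 27.6 CPM in vehicle and 7.44 and 8.60 CPM in drug in Snf2hko (interaction -2.84 ± 0.15, edgeR adjusted p = 9.36e-10). Gsdmd was at 5.13 and 4.21 CPM in vehicle and 8.12 and 9.26 CPM in drug against 6.15 and 7.03 CPM in vehicle and 1.62 and 1.95 CPM in drug (interaction -2.76 ± 0.23, edgeR adjusted p = 3.56e-08). Of the 954 lower interactions among higher starts, 100 were reversals of this kind, 227 fell in both genotypes but further in Snf2hko, and 338 passed in Snf2hko alone.

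The leading higher interactions among higher starts widened a gap that was there before the drug. Igfbp4, a binding protein for insulin-like growth factors, went from 8.56 and 8.75 to 19.4 and 14.2 CPM in wild type and from 11 and 11.9 to 100.2 and 90.3 CPM in Snf2hko (interaction 2.08 ± 0.17, edgeR adjusted p = 3.77e-08). Hoxd13, a posterior homeobox gene, went from 2.31 and 1.51 to 2.99 and 3.09 CPM and from 3.16 and 2.83 to 19.9 and 19 CPM (interaction 2.03 ± 0.25, edgeR adjusted p = 6.41e-06). In both genes the treated Snf2hko pair lay far above the rest. Dpysl3, a relative of Dpysl2, fell from 28.1 and 28.6 to 19.9 and 17.6 CPM in wild type and rose from 51.7 and 50.5 to 123 and 117 CPM in Snf2hko (interaction 1.82 ± 0.11, edgeR adjusted p = 2.07e-09). Fads3, a gene of the fatty acid desaturase family, also moved both ways, with responses of -0.98 in wild type and 0.97 in Snf2hko, but its fall did not pass in wild type of batch 2450 (-0.55, edgeR adjusted p = 0.103). Wnt7b, a Wnt ligand, fell in both, by 2.69 in wild type and by 0.80 in Snf2hko on the log2 scale.

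Among genes that started lower in Snf2hko, the leading higher interactions were gains in Snf2hko that were absent or smaller in wild type. Sema6a, a transmembrane semaphorin of axon guidance, fell in wild type from 8.87 and 7.43 CPM to 5.11 and 4.81 CPM. It rose in Snf2hko from 5.35 and 4.89 to 31.6 and 22.5 CPM (interaction 3.10 ± 0.25, edgeR adjusted p = 3.73e-08), so that it passed from the lowest vehicle values to the highest treated ones. Mmp25, a membrane-anchored metalloproteinase, had 6.76 and 6.72 CPM in vehicle and 5.43 and 5.76 CPM in drug in wild type, and 4.67 and 4.22 CPM in vehicle and 25 and 20.8 CPM in drug in Snf2hko (interaction 2.64 ± 0.18, edgeR adjusted p = 7.89e-09). Sema3c, a secreted semaphorin, rose in both, from 2.95 and 2.99 to 6.28 and 5.86 CPM and from 0.983 and 1.09 to 12.6 and 13.2 CPM (interaction 2.60 ± 0.23, edgeR adjusted p = 7.75e-08). Here the order of the 2 lines changed, with Snf2hko below wild type in vehicle and above it in drug.

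In wild type of batch 2450, Mmp25 rose by 0.88 (edgeR adjusted p = 4.44e-05) and Fndc3c1 by 0.82 (edgeR adjusted p = 6.47e-05), while the response of Sema6a was 0.21 and did not pass (edgeR adjusted p = 0.5). The interactions of the 3 genes with those libraries were 1.49, 1.58 and 2.19. Fndc3c1, a gene with fibronectin type III domains, closed only a part of its gap. It stood at 15.6 and 15.3 CPM in vehicle and 14.3 and 14 CPM in drug in wild type, and rose from 1.26 and 1.15 to 6.87 and 5.86 CPM in Snf2hko (interaction 2.52 ± 0.21, edgeR adjusted p = 5.21e-08).

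The leading lower interactions among lower starts deepened a deficit. Nr0b1, which encodes the nuclear receptor DAX1 of naive stem cells, was at 128 and 130.3 CPM in vehicle and 127 and 103 CPM in drug in wild type. In Snf2hko it fell from 95.2 and 106 to 15.8 and 19.2 CPM (interaction -2.36 ± 0.14, edgeR adjusted p = 1.28e-09). Ppp1r1a, an inhibitor subunit of protein phosphatase 1, had 21.5 and 20.9 CPM in vehicle and 18.3 and 17.3 CPM in drug in wild type and 13.2 and 14.8 CPM in vehicle and 1.95 and 2.22 CPM in drug in Snf2hko (interaction -2.49 ± 0.17, edgeR adjusted p = 5.32e-09). In both genes the wild-type response did not pass the test and the treated Snf2hko pair was the lowest. In wild type of batch 2450, Nr0b1 fell by 0.56 (edgeR adjusted p = 5.06e-05).

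Msrb2, a methionine sulfoxide reductase of mitochondria, and Cpxm1, of the carboxypeptidase X family, rose in wild type and fell in Snf2hko. Msrb2 had 14.9 and 13.6 CPM in vehicle and 29 and 30.4 CPM in drug in wild type, against 10.0 and 8.92 CPM in vehicle and 3.35 and 4.01 CPM in drug in Snf2hko (interaction -2.41 ± 0.18, edgeR adjusted p = 1.78e-08). Cpxm1 had 22 and 22.9 CPM in vehicle and 39.8 and 41.4 CPM in drug against 15.3 and 18.3 CPM in vehicle and 6.41 and 5.68 CPM in drug (interaction -2.33 ± 0.15, edgeR adjusted p = 2.45e-09). Xkr5, of the XK-related family, fell in both genotypes, from 19.6 and 17.9 to 13.7 and 11.9 CPM in wild type and from 4.71 and 5.46 to 0.541 and 0.679 CPM in Snf2hko (interaction -2.51 ± 0.25, edgeR adjusted p = 1.39e-07). Its sign depended on the scale: as a fold change the loss was larger in Snf2hko, whereas in CPM wild type lost more, by 1.42 CPM.

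**Figure D3:**
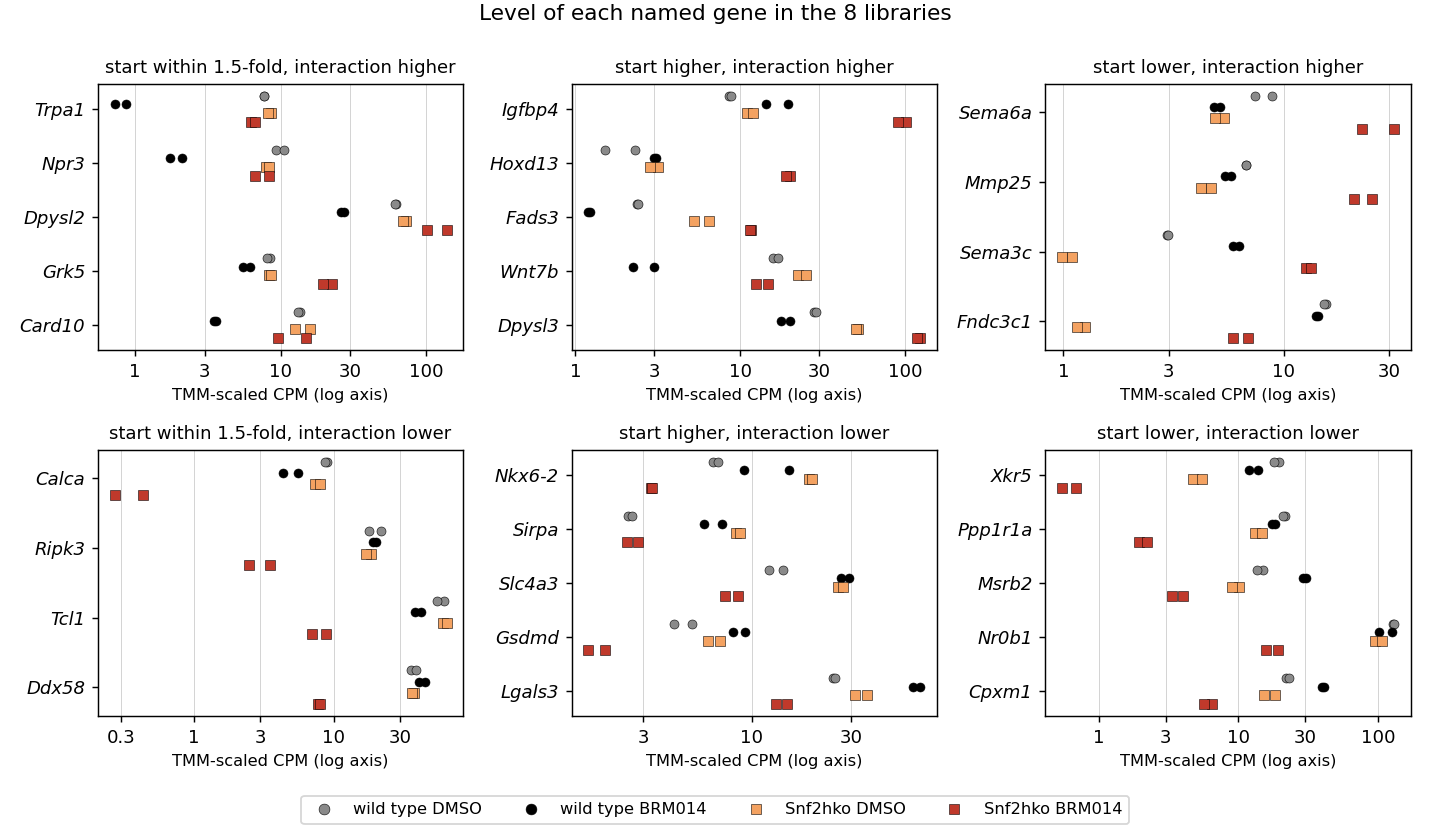
TMM-scaled CPM on a log axis for the 28 genes named by start class and direction, with 1 point per library and 2 libraries per group (circles wild type, squares Snf2hko). In the lower row the treated Snf2hko squares (red) lie below the vehicle Snf2hko squares for every gene, and for Ddx58 the other 3 groups lie close together.

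The gene lists that follow describe pathways and cell types. By rule, each list names at most 3 of its called members, taken in order of their adjusted p, and any further member was chosen after its values were seen. Each count is to be read beside the shares over all tested genes, 15.8% higher and 16.8% lower.

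Subunit genes of both remodeller families were among the calls, as were 32.6% of all tested genes. Of 22 testable SWI/SNF genes, 8 were higher (36.4%) and 3 lower (13.6%) in the interaction. Smarcc1, which encodes the core scaffold BAF155, had 539 and 538 CPM in vehicle and 466 and 458 CPM in drug in wild type, and 288 and 265 CPM in vehicle and 492 and 371 CPM in drug in Snf2hko. It started lower in Snf2hko and rose there alone (interaction 0.86 ± 0.13, edgeR adjusted p = 5.97e-05). Actl6a, an actin-related subunit, moved the other way, with an interaction of -0.59, and so did Phf10 of the PBAF form, at -0.47. The count of 8 depended on the processing: it was 3 without BRM014 Snf2hko replicate 1, without DMSO Snf2hko replicate 2 or without BRM014 wild-type replicate 3, 5 with RLE size factors, 3 with DESeq2, and 2 with the wild-type arm of batch 2450. Smarca2 started 2.07 higher on the log2 scale in Snf2hko, at 45.4 and 43.7 CPM against 10.4 and 10.8 CPM, and its interaction of -0.31 ± 0.15 did not pass (edgeR adjusted p = 0.117).

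The ISWI list had 3 higher and 2 lower members of 10. Smarca1, which encodes SNF2L, the other ISWI ATPase, went from 75.7 and 82.3 to 116 and 117 CPM in wild type. In Snf2hko it stayed between 47.3 and 54.5 CPM without a called response (interaction -0.71 ± 0.10, edgeR adjusted p = 2.71e-05). Baz2a, a partner of SNF2H in a nucleolar complex, moved in opposite directions, with responses of -0.32 in wild type and 0.60 in Snf2hko. Hmgxb4, an HMG-box gene, rose in wild type by 0.60 and had an interaction of -0.49. Ino80 itself had an interaction of 0.13, which did not pass (edgeR adjusted p = 0.33).

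CTCF and cohesin genes were called about as often as all genes, 3 higher and 2 lower of 17. Ctcf had an interaction of 0.26 and Rad21, the cleavable cohesin subunit, of 0.42. The largest was Smc1b, a meiotic cohesin subunit, which started alike. Smc1b rose in wild type from 11.8 and 13.1 to 27.7 and 31.2 CPM and was at 11.5 and 11.9 CPM in vehicle and 9.66 and 9.42 CPM in drug in Snf2hko (interaction -1.53 ± 0.14, edgeR adjusted p = 1.95e-07). Its response was reversed in the knockout, and Rec8, the meiotic kleisin, was lower too (-0.76). The 3 higher members were 0 without BRM014 Snf2hko replicate 1 or without DMSO Snf2hko replicate 2, and 0 with the wild-type arm of batch 2450, all in edgeR, against 3 with DESeq2. All 35 listed clustered protocadherin genes, known targets of CTCF, were listed at 0 and could not be tested.

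Naive pluripotency genes leaned lower. Of 13 testable members, 8 were lower and 1 higher, with a median interaction of -0.47 against 0.007 over all genes, and 7 or 8 were lower whichever library was left out. Beside Tcl1 and Nr0b1, the lower members were Fbxo15 (-0.73), Prdm14 (-0.71), Zfp42 (-0.62), Esrrb (-0.51), Klf2 (-0.47) and Nr5a2 (-0.41), of which all but Fbxo15, an F-box gene, encode transcription factors of the naive network. Esrrb was at 576 and 541 CPM in vehicle and 482 and 451 CPM in drug in wild type, and at 518 and 549.6 CPM in vehicle and 329.5 and 298 CPM in drug in Snf2hko. The treated Snf2hko pair was the lowest. Tbx3, a T-box factor of naive cells, was the higher member: it fell from 84 and 86 to 45.5 and 34.9 CPM in wild type and was at 202 and 181 CPM in vehicle and 217 and 179 CPM in drug in Snf2hko (interaction 1.12). Summed over the list, treated Snf2hko cells had 1845 and 1712 CPM, while the other 3 groups ran from 2289 to 2556 CPM.

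Fewer of the core pluripotency genes were called. Pou5f1, Nanog and Sall4 had interactions of 0.04, -0.22 and 0.25, none of them called. Dppa4 (-0.58), Trim28 (-0.56), Fgf4 (-0.42) and Lin28a (-0.37) were lower, giving 4 lower and 0 higher of 15 in edgeR, with 0 higher in DESeq2 and 2 higher at an unadjusted p under 0.05. The count of 0 higher did not hold in every edgeR fit that left out 1 library. With the wild-type arm of batch 2450 Fgf4 turned to 0.10. Of the 7 formative genes, Zic2 was the clearest higher member, at 12.4 and 12.7 CPM in vehicle and 27.9 and 23.6 CPM in drug in wild type and 4.67 and 4.76 CPM in vehicle and 26.3 and 26.1 CPM in drug in Snf2hko. Its treated levels overlapped between genotypes, so its interaction of 1.43 came with a start that was -1.42 against wild type. Tcf15, a helix-loop-helix factor, was lower at -0.94. Fgf5, a growth factor of the epiblast, was induced in wild type by 1.75 on the log2 scale and had a response of -0.07 in Snf2hko.

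Germline genes leaned lower, with 7 lower and 1 higher of 17 and a median of -0.37. Their start was below wild type, with a median of -0.90, and their median response was 0.58 in wild type and 0.63 in Snf2hko. Tuba3a and Tuba3b, tubulin genes of the testis, were -1.08 and -1.13, but as near-identical copies their reads may be split by the counting. Tex19.1, a germ cell and stem cell gene, was at 86 and 81.2 CPM in vehicle and 51.6 and 52.3 CPM in drug in wild type and at 16.3 and 18.5 CPM in vehicle and 4.84 and 5.48 CPM in drug in Snf2hko. Its log2 interaction was -1.06, but in CPM wild type lost more, so the sign depended on the scale. Hormad1 and Sycp1, of the meiotic chromosome axis, had responses of 0.65 and 0.62 in wild type and of -0.07 and 0.10 in Snf2hko.

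Marker lists of other lineages differed in the share of members called, from 8.33% for mesoderm to 50% for the 6 neuroectoderm genes, beside 32.6% of all genes. Primitive endoderm genes, high at the start, had 2 higher and 2 lower of 14, and their summed level under BRM014 was 5020 and 4724 CPM in wild type against 19140 and 17070 CPM in Snf2hko. Dab2, an endocytic adaptor, and Cubn, an uptake receptor, were higher at 0.59 and 0.63, while the transcription factor Sox7 (-0.94) and the proteoglycan gene Srgn (-0.30) were lower. Gata4, Gata6 and Sox17, the factors that define the lineage, had interactions of 0.29, -0.21 and -0.41, none called. With the wild-type arm of batch 2450, 8 of the 14 were higher in place of 2. Mesoderm genes had 0 higher and 1 lower of 12 in edgeR, Mesp2 at -1.42, with 0 higher in DESeq2 and 2 higher at an unadjusted p under 0.05. For mesoderm genes too, the count of 0 higher did not hold in every fit that left out 1 library. Endothelial and blood genes had 0 higher and 2 lower of 11, Vcam1 at -2.94 (of opposite sign in CPM) and the angiopoietin receptor gene Tek at -0.58 (0.25 with the wild-type arm of batch 2450), with 0 higher also in DESeq2 and at an unadjusted p under 0.05. With the wild-type arm of batch 2450, 1 endothelial or blood gene was higher. Of 6 neuroectoderm genes Zic1 (1.28) and Nes (0.38) were higher and Pax6 (-0.45) lower, and each of the 3 calls was lost without some single library. Of 11 trophoblast genes Plac1 (4.40 ± 0.89) and Esx1 (3.98 ± 0.998) were higher and Ascl2 (-1.77) lower. Plac1 and Esx1 lay near the floor, at 0.0747 and 0.0454 CPM and at 0.224 and 0.0908 CPM in treated wild-type cells. In treated Snf2hko cells they were at 2.27 and 1.72 CPM and at 1.001 and 0.974 CPM. Against Ino80ko, Plac1 had 0.77 (edgeR adjusted p = 0.747) and Esx1 3.34 (edgeR adjusted p = 0.0205). The call of Ascl2 was lost without DMSO wild-type replicate 4, DMSO Snf2hko replicate 2, BRM014 wild-type replicate 3 or BRM014 Snf2hko replicate 1. The 2-cell-like list had 1 lower of 6, Trim43b, which rose in wild type from 0.533 and 0.526 to 5.80 and 6.67 CPM and in Snf2hko from 0.297 and 0.457 to 1.001 and 1.04 CPM (interaction -2.12).

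Fibroblast and feeder genes were called more often than all tested genes, with 5 higher (41.7%) and 3 lower (25%) of 12. Over all tested genes the shares were 15.8% and 16.8%. Vim, an intermediate filament gene, rose in both genotypes, from 147 and 136 to 249.7 and 228 CPM in wild type and from 321 and 326 to 865 and 873 CPM in Snf2hko (interaction 0.67). Thy1, a surface glycoprotein, fell by 3.73 in wild type and by 1.91 in Snf2hko from an alike start. The summed level of the list ran from 620.1 to 929.1 CPM in 6 libraries and reached 1230 and 1201 CPM in treated Snf2hko cells. Vim alone made 865 and 873 CPM of the latter, so the rise of the sum came from Vim and does not describe the other members. Col5a1, a fibrillar collagen gene, was lower at -1.18. The part of such cells in the matrix values was not tested.

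Nodal and activin genes leaned higher, with 6 higher and 1 lower of 12 and a median of 0.42. Inhbb, the ligand subunit, was at 239 and 223 CPM in vehicle wild-type cells and 9.91 and 9.62 CPM after BRM014. In Snf2hko it went from 288 and 294 CPM to 39.9 and 41.2 CPM, so the loss was smaller as a fold change (interaction 1.72 ± 0.10, edgeR adjusted p = 9.36e-10) but larger in CPM, by 28.7 CPM. The ligand gene Nodal (0.49), the receptors Acvr2a (0.35) and Acvr2b (0.85), the antagonist Fst (0.58) and the feedback repressor Skil (1.04) were the other higher members. Foxh1, the DNA-binding partner of SMAD2, was lower: it was at 34.4 and 29.4 CPM in vehicle and 36.6 and 33.6 CPM in drug in wild type and at 25.3 and 29 CPM in vehicle and 8.79 and 8.99 CPM in drug in Snf2hko (interaction -1.75 ± 0.15, edgeR adjusted p = 6.39e-08). The target genes Lefty1 and Lefty2, which antagonise Nodal, fell in both genotypes, by 2.93 and 2.60 in wild type and by 3.02 and 2.87 in Snf2hko, with no called interaction.

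Other signalling lists were mixed. FGF and ERK feedback genes had 5 higher and 6 lower of 19: the inhibitors Spred2 (1.26), Spry4 (0.76) and Spry2 (0.72) were higher, and the phosphatases Dusp5 (-1.06) and Dusp4 (-0.92) and the FGF carrier Fgfbp1 (-1.34) lower. BMP genes had 1 higher and 1 lower of 12, the helix-loop-helix inhibitor Id4 at 0.90 and the ligand gene Bmp4 at -0.64. The call of Id4 was lost in 6 of the 8 fits that left out 1 library, and with the wild-type arm of batch 2450. Wnt targets had 2 higher and 2 lower of 11, with the Wnt antagonists Znrf3 at 0.71 and Notum at -0.89. Ccnd2, a D-type cyclin, fell in wild type from 71.1 and 72.8 to 24.4 and 25.9 CPM and was at 98.2 and 93.8 CPM in vehicle and 108 and 86.8 CPM in drug in Snf2hko (interaction 1.54 ± 0.13, edgeR adjusted p = 5.59e-08). The treated Snf2hko pair overlapped the vehicle pair. Among TEAD genes, 2 higher and 2 lower of 13, the DNA-binding factors split: Tead2 was lower (-1.40) and Tead4 higher (0.97).

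Sterol genes gave the highest share of higher calls of any list, 11 of 18, with 2 lower. Their median interaction was 0.36, with a median response of -0.34 in wild type and 0.20 in Snf2hko. Dhcr7, the last enzyme of cholesterol synthesis, was at 39 and 39.4 CPM in vehicle and 31 and 30.1 CPM in drug in wild type, and at 31 and 31.4 CPM in vehicle and 85.1 and 59.7 CPM in drug in Snf2hko (interaction 1.57 ± 0.18, edgeR adjusted p = 3.99e-06). Idi1, an isomerase of the same pathway, fell from 85.1 and 97.2 to 54.4 and 54.5 CPM and rose from 103 and 99.9 to 141 and 136 CPM (interaction 1.19 ± 0.10, edgeR adjusted p = 7.36e-08), from an alike start. The treated groups did not overlap in either gene. Hmgcs1, an early enzyme of the pathway, had an interaction of 0.68, and the sterol carrier gene Stard4 had 1.18. Fdft1, which encodes squalene synthase, was lower at -0.30. The count of higher members was 8 to 12 over the fits that left out 1 library and 11 with the wild-type arm of batch 2450.

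ATF4 stress and amino acid genes leaned lower, with 7 lower and 1 higher of 14. Phgdh, the first enzyme of serine synthesis, was at 180.1 and 159 CPM in vehicle and 134 and 142 CPM in drug in wild type and at 98.3 and 113 CPM in vehicle and 35.8 and 37 CPM in drug in Snf2hko (interaction -1.24 ± 0.11, edgeR adjusted p = 1.48e-07). Psat1 and Psph, the next enzymes of that pathway, had interactions of -0.61 and -0.34, and asparagine synthetase, Asns, had -0.60. The stress genes Nupr1 (-1.48) and Atf3 (-0.61) were lower and Ddit4 higher (0.81). With the wild-type arm of batch 2450, 4 members were lower in place of 7.

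Interferon and p53 genes moved in both directions. Of 13 interferon response genes, 3 were higher and 4 lower. Their median interaction was 0.35, with a median response of -0.65 in wild type and -0.13 in Snf2hko. The 3 members named by adjusted p, Ddx58, Irf1 and Tap1, were all lower, with interactions of -2.43, -1.43 and -1.82. Tap1, a peptide transporter of antigen presentation, was at 7.70 and 6.88 CPM in vehicle and 8.79 and 8.76 CPM in drug in wild type and fell in Snf2hko from 24.9 and 28.1 to 8.79 and 9.30 CPM, which met the treated wild-type level. Of 18 p53 targets, 3 were higher and 2 lower, with the cell cycle inhibitor Cdkn1a at 1.15, the RNA-binding protein gene Zmat3 at 1.25 and the phosphatase gene Ptprv at -1.35. With the wild-type arm of batch 2450, 14 p53 targets were higher, so this list's count depended on which wild-type libraries were used.

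Immediate early genes had 5 higher and 2 lower of 16, in both directions at large size. Egr1, a serum-induced transcription factor, started low in Snf2hko at 2.38 and 2.54 CPM against 10.2 and 11.9 CPM and reached 19.6 and 14.2 CPM under drug, against 16.2 and 16.1 CPM in wild type. The treated groups overlapped, and the interaction was 2.23 ± 0.23 (edgeR adjusted p = 5.45e-07). Arc, a synaptic activity gene, started high at 49.6 and 51.1 CPM against 30.0 and 26.3 CPM and fell to 4.98 and 5.95 CPM, against 14.5 and 14 CPM in wild type (interaction -2.22 ± 0.14, edgeR adjusted p = 2.73e-09). Nr4a2, an orphan nuclear receptor, and Myc were higher at 1.98 and 0.92, but with the wild-type arm of batch 2450 Nr4a2 had 0.70 and was not called.

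Homeobox genes had 7 higher and 4 lower of 24, with a median start of 1.06 and a median interaction of 0.97. The higher count was 4 without BRM014 Snf2hko replicate 1. Beside Hoxd13, the higher members included Hoxa7 (3.05) and Hoxb9 (1.36) of the Hox clusters. Six4, a homeobox factor of muscle and sensory progenitors, was lower (-0.91), as was Gbx2, a factor of the midbrain-hindbrain border (-1.05). Polycomb genes, the repressors of Hox clusters, had 5 higher and 2 lower of 18, with the methyltransferase gene Ezh2 at 0.42, Pcgf2 at 0.58 and Bmi1 at -0.46. With the wild-type arm of batch 2450 these values were -0.05, -0.15 and -0.06, and 1 Polycomb gene was higher in place of 5. The count was also 1 without BRM014 Snf2hko replicate 1, without DMSO Snf2hko replicate 2 or without DMSO wild-type replicate 4. The call of Bmi1 was lost without DMSO wild-type replicate 3.

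Imprinted and DNA methylation genes leaned higher. Of 13 imprinted genes 6 were higher and 2 lower, with a median of 0.45. Cdkn1c, a cell cycle inhibitor, was at 112 and 104 CPM in vehicle and 15 and 11 CPM in drug in wild type and at 145 and 139.8 CPM in vehicle and 42.4 and 46 CPM in drug in Snf2hko (interaction 1.34 ± 0.14, edgeR adjusted p = 7.12e-07), a value that was 0.13 with the wild-type arm of batch 2450. The loss was smaller as a fold change in Snf2hko, but larger in CPM, by 3.08 CPM. Peg3, a zinc finger gene that started alike, was 0.71, Dlk1, a Notch-family ligand, 1.17, and Nnat, a small membrane protein gene, 1.18, of opposite sign in CPM. Of 8 methylation genes 3 were higher and 1 lower, among them Mbd3, a subunit of the NuRD complex, at 1.01, Dnmt3l, the cofactor of the de novo enzymes, at 0.47, and the glycosylase gene Tdg at 0.56. The calls of Mbd3 and Dnmt3l were lost with the wild-type arm of batch 2450, at 0.29 and 0.24. With that arm 1 methylation gene was higher and 1 lower, and 4 imprinted genes were higher and 1 lower.

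Matrix genes had 8 lower and 3 higher of 18, with a median of -0.02, and 8 were lower whichever library was left out. Their summed level was 6302 and 5881 CPM in vehicle wild-type cells and 14030 and 14690 CPM in vehicle Snf2hko cells, as primitive endoderm markers were also higher there, and the part of that expression in these values was not tested. Coch, a secreted matrix protein of the inner ear, rose in wild type from 20.1 and 19.4 to 119.5 and 116 CPM and in Snf2hko from 16.8 and 16.3 to 23.9 and 26.4 CPM (interaction -1.98 ± 0.11, edgeR adjusted p = 1.28e-09). The treated wild-type pair was far above all others. Thbs2 (-1.57), a thrombospondin gene, and Col9a3 (-1.32), a cartilage collagen gene, also rose in wild type. Col18a1, a basement membrane collagen, fell in both, from 786 and 695 to 315 and 290.1 CPM and from 328 and 357 to 68.1 and 67.4 CPM (interaction -1.05, of opposite sign in CPM). Keratin and envelope genes had 5 higher and 5 lower of 17. The higher count was 2 without DMSO Snf2hko replicate 1 or without BRM014 wild-type replicate 4, and 3 without replicate 3 of either wild-type group, and the lower count was 3 without DMSO Snf2hko replicate 2. Tgm1 fell from 179 and 157 to 15.8 and 15.9 CPM in wild type and from 201 and 215 to 6.74 and 6.45 CPM in Snf2hko (interaction -1.58 ± 0.12, edgeR adjusted p = 1.63e-08), while Krt19 (0.77), Cldn7 (1.27) and Cdh1, the gene of E-cadherin (1.09), were higher. Epcam (-0.87), of epithelial adhesion, and Tgm2 (-1.56) were lower.

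Replication licensing genes had 6 lower and 0 higher of 17, and ribosomal protein genes 10 lower and 0 higher of 16, by edgeR in both cases, and 0 were higher also at an unadjusted p under 0.05 and in DESeq2. The sizes were small, at medians of -0.18 and -0.36. Gins1, of the helicase complex, was -0.58, Dbf4, an activator of origin firing, -0.51, and Ccne1, a cyclin of S phase entry, -0.42. Rps6 was at 1120 and 994 CPM in vehicle and 1299 and 1237 CPM in drug in wild type, and at 1005 and 1020 CPM in vehicle and 752 and 888 CPM in drug in Snf2hko. Rpl7 and Rps4x had interactions of -0.47 and -0.41. Genes of this family have many pseudogene copies, so their counts are less certain. The count of lower ribosomal protein genes was 4 without BRM014 Snf2hko replicate 1 or without DMSO Snf2hko replicate 2, 5 without DMSO wild-type replicate 4 or without BRM014 wild-type replicate 3, 14 at most, and 1 with the wild-type arm of batch 2450.

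**Figure D4:**
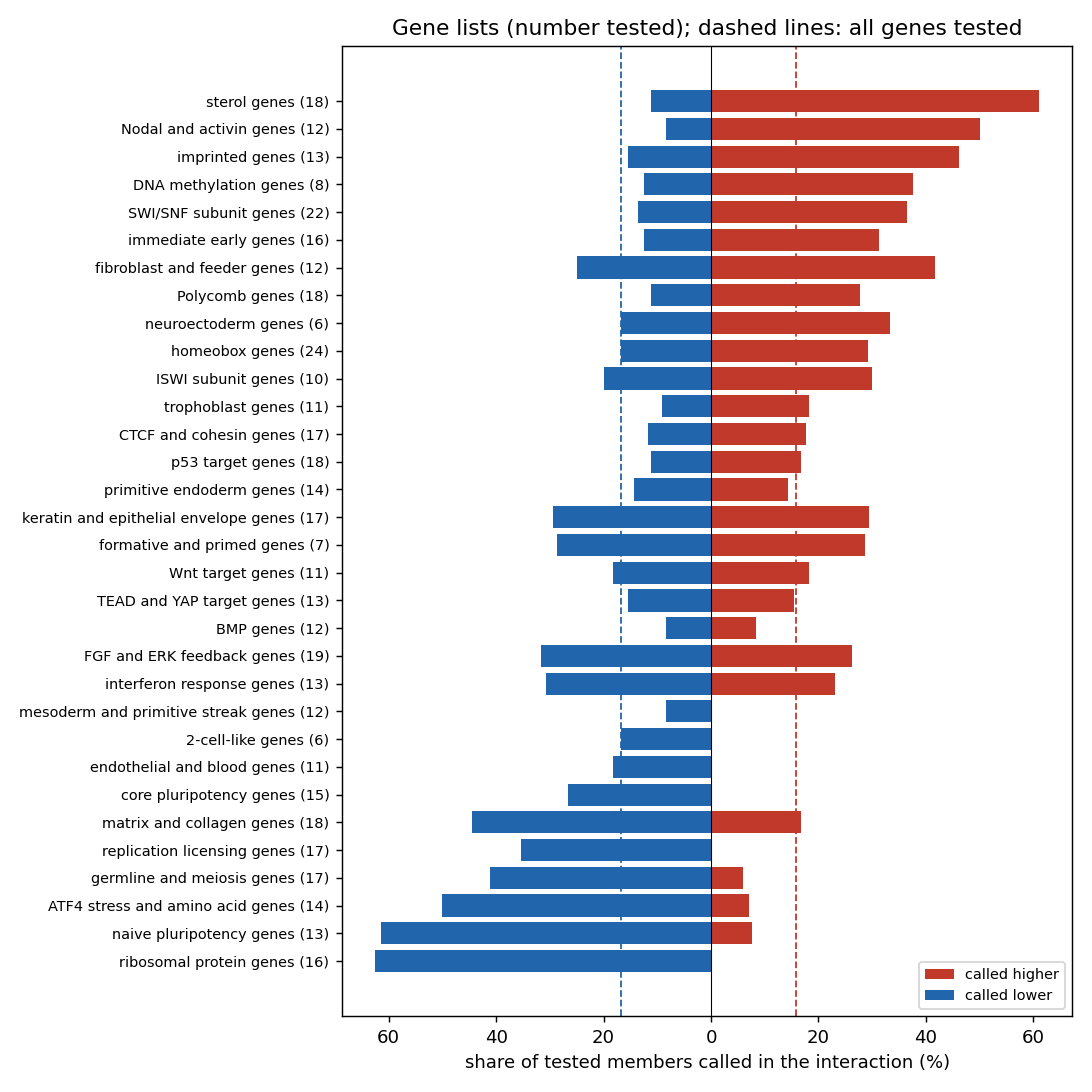
For each gene list (number of tested members in brackets), the bar to the right gives the percentage of members called higher and the bar to the left the percentage called lower, and the dashed lines give the same for all tested genes (15.8% and 16.8%). Sterol genes reach 61.1% higher and ribosomal protein genes 62.5% lower.

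The Ino80ko line gave a comparison with no wild-type library in it. The Snf2hko response differed from the Ino80ko response for 4461 genes (34%), 2159 higher (16.4%) and 2302 lower (17.5%). The Ino80ko response itself differed from the wild-type response for 1186 genes. Among the named genes with an alike start, that difference passed for Trpa1 (1.49), Dpysl2 (0.67), Calca (-1.52), Tcl1 (-0.54) and Ddx58 (-0.615). Each had the sign of the Snf2hko interaction. It did not pass for Npr3, Grk5, Card10 or Ripk3. All 28 genes named by class differed between the 2 knockout lines in the same direction as from wild type, but the 2 comparisons share the 4 Snf2hko libraries and these genes were chosen for their Snf2hko effect, so the count is a description. Nkx6-2 showed the largest loss of size, from -3.45 against wild type to -1.10 against Ino80ko (edgeR adjusted p = 0.00239). Wnt7b, Card10 and Igfbp4 were among the genes that gained, to 2.80, 2.48 and 2.73. Zic2, with 1.43 against wild type, had 0.44 against Ino80ko, which did not pass (edgeR adjusted p = 0.0713). Among the genes named from the lists, Col18a1, Sox7 and Nes passed against Ino80ko with the opposite sign. They had 1.18, 0.56 and -0.30 there (edgeR adjusted p = 7.16e-08, 0.0234 and 0.0275). Vim, at 0.085, and Rec8, at -0.12, did not pass against Ino80ko (edgeR adjusted p = 0.512 and 0.673).

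A second wild-type arm, from replicates 1 and 2 of batch 2450, shares no library with the first but differs from the Snf2hko arm in batch. With it, 3156 genes were called, of which 2317 were also called with the first arm in the same direction and 10 in the opposite one, and 4080 of the 4280 first-arm calls that could be compared kept their sign. All 28 genes named by class kept their sign, and 27 stayed called. The exception was Card10, at 0.74. Dpysl3 and Ripk3 moved least, to 1.84 and -2.53. Here too the Snf2hko libraries are shared. Over the 115 genes that the naming rule chose and that could be compared, 93 stayed on the same side of the threshold, 18 lost their call and 4 turned in sign. Among the losses were Rad21 (0.20), Nes (0.20), Zic1 (0.60), Znrf3 (0.34), Psat1 (-0.16), Ptprv (-0.45), Nnat (0.38), Gins1 (-0.24), Rps4x (-0.11) and Rpl7 (-0.24), given with this arm. The list counts also moved, from 3 higher ISWI genes to 1, from 5 higher FGF and ERK feedback genes to 3 and from 3 higher matrix genes to 5.

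**Figure D5:**
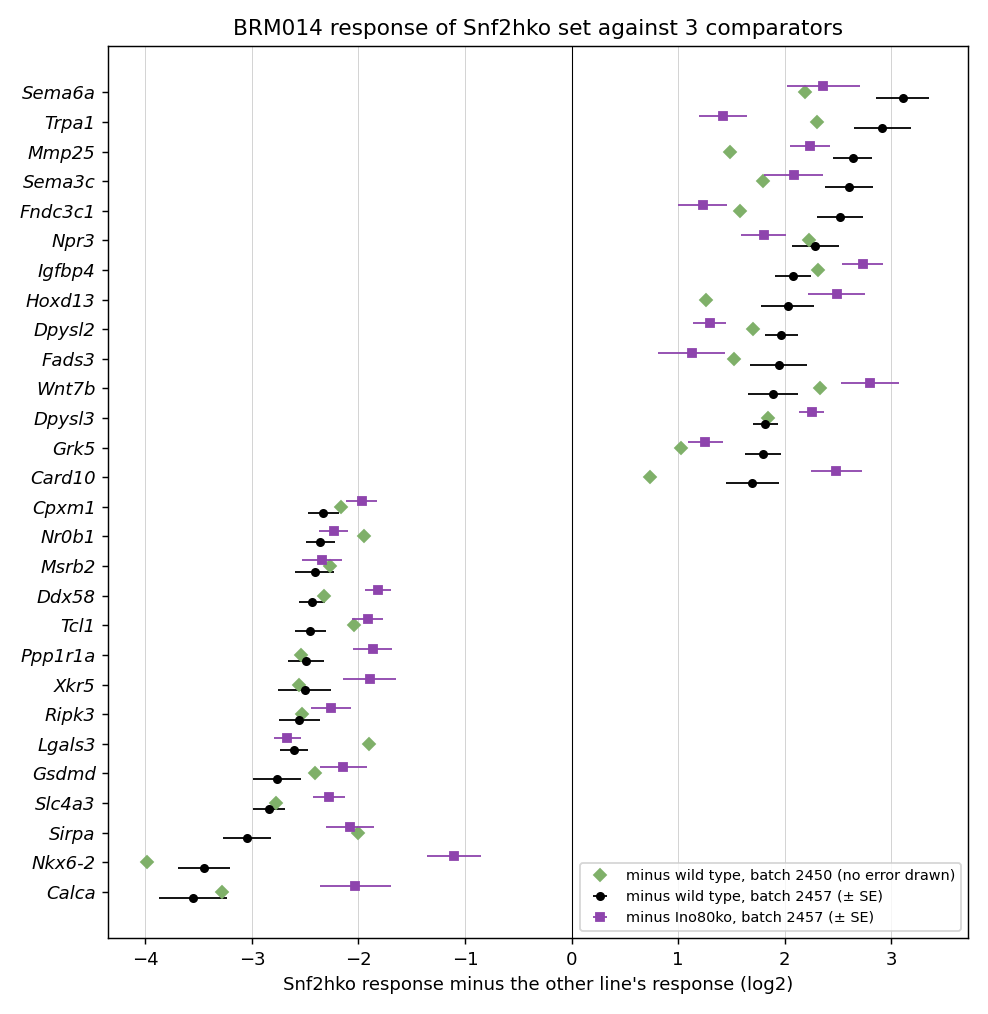
For the 28 genes named by class, the Snf2hko response to BRM014 minus that of wild type in batch 2457 (circles, ± SE), of wild type in batch 2450 (diamonds, no error drawn) and of Ino80ko (squares, ± SE), all log2. Every point lies on the same side of 0 for each gene, and the smallest diamond is Card10 at 0.74.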

How the data were processed

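RNA was sequenced from mouse embryonic stem cells with a stranded total RNA kit, per the labels' protocols. The authors deposited one table of read counts per gene for all 38 libraries, with no normalization. The submitters' processing notes name bcl2fastq 2.17, STAR and the builds GRCm38 and mm10. Which program counted the reads, with which strand setting and annotation, is not given in the sources used here, so overlapping genes and near-identical copies may share reads.

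All later steps were computed from the counts as deposited. The 12 libraries of batch 2457 were fitted together in edgeR 4.0.16 (R 4.3.3) with filterByExpr (minimum count 10, minimum total count 15), TMM factors and robust quasi-likelihood tests, with 6 residual degrees of freedom and a biological coefficient of variation of 6.6%. Of 55385 rows, 13130 were tested. Calls were made at an adjusted p under 0.05 (Benjamini-Hochberg over all tested genes). The standard errors come from the fitted model. The 95% intervals are confidence intervals of a log2 difference, formed from these standard errors. They rest on the spread between libraries as the model estimates it. Alternatives used DESeq2 1.42.0 and the other settings of the closing section. The test was checked on simulated counts.

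The members and gene lists were chosen with earlier results of these data known. Up to 5 genes were named per start class and direction, by the size of the interaction, among called genes with at least 2-fold size, a mean log2 CPM of at least 2, a count in each of the 8 libraries, Snf2hko effects wholly apart from the wild-type effects and a symbol that is no predicted model. ATPase genes and up to 3 called members per list were added. Members named beyond these, such as Pou5f1, Nanog and Gata6, were chosen after their values were seen. Some genes that the rule or the lists hold are not reported here. Promoters came from RefSeq, build GRCm38.p6. The other 26 libraries were not analysed here, apart from 4 wild-type libraries of batch 2450.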

Additional observations from a re-analysis of the deposited data

Results flagged for a closer look

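The drug response differed between genotypes by a test of the difference itself for 4281 genes against wild type and for 4461 genes against Ino80ko, both in edgeR. The 28 genes named by class were all among them, with the interaction given here on the log2 scale. With an alike start it was 2.92 for Trpa1, 2.29 for Npr3, 1.97 for Dpysl2, 1.79 for Grk5 and 1.70 for Card10. In the other direction it was -3.55 for Calca, -2.56 for Ripk3, -2.45 for Tcl1 and -2.43 for Ddx58. With a higher start it was 2.08 for Igfbp4, 2.03 for Hoxd13, 1.94 for Fads3, 1.89 for Wnt7b and 1.82 for Dpysl3. It was -3.45 for Nkx6-2, -3.05 for Sirpa, -2.84 for Slc4a3, -2.76 for Gsdmd and -2.60 for Lgals3. With a lower start it was 3.10 for Sema6a, 2.64 for Mmp25, 2.60 for Sema3c and 2.52 for Fndc3c1. It was -2.51 for Xkr5, -2.49 for Ppp1r1a, -2.41 for Msrb2, -2.36 for Nr0b1 and -2.33 for Cpxm1.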

How the results depend on the processing

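Of the 28 genes named by class, all kept direction and call with RLE size factors, with DESeq2 and without any 1 of the 8 libraries, but they were chosen for large size and for separation between libraries. Of all 4281 calls, 96.8% were also called with RLE factors, 91.7% with DESeq2, 73.3% to 89.3% without 1 library and 54.1% with the wild-type arm of batch 2450. With RLE factors 4280 genes were called, and with DESeq2 4044. The fits without 1 library gave 3180 to 4502 calls, with 885 to 1448 for higher starts, 960 to 1591 for lower starts and 195 to 456 for unsettled starts. The lowest counts came without DMSO Snf2hko replicate 2, except for unsettled starts, where it was BRM014 Snf2hko replicate 1. At an adjusted p under 0.01 there were 2621 calls (1228 higher, 1393 lower), with 663 for alike, 825 for higher and 147 for unsettled starts, and 2843 against Ino80ko. At 2-fold or more there were 1392 (631 higher, 761 lower), with 184, 442 and 476 for alike, higher and lower starts, and 1365 against Ino80ko. Tested against a 1.2-fold interaction there were 2537 (1203 higher, 1334 lower), with 561, 811 and 924 for these classes, and 2659 against Ino80ko. With a start called only at 1.5-fold or more, the calls were 1816 for alike, 833 for higher, 762 for lower and 870 for unsettled starts. For unsettled starts there were 56 calls among genes with a mean log2 CPM of at least 2, and 168 when a start within 2-fold counted as alike.

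With the wild-type arm of batch 2450 the sign turned for Fgf4 (0.10), Tek (0.25), Pcgf2 (-0.15) and Ezh2 (-0.05), and the cause was not tested. In linear CPM the sign turned, by construction of that scale, for Xkr5 (1.42), Tex19.1 (19.4), Ascl2 (2.72), Vcam1 (5.75), Inhbb (-28.7), Bmi1 (19.8), Cdkn1c (-3.08), Nnat (-1.34) and Col18a1 (163.4).

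With the replicate number as a block within genotype, 4411 genes were called, of which 4167 were called without it. The deviations of same-numbered samples correlated by 0.04 in wild type, 0.08 in Ino80ko and 0.22 in Snf2hko, so the numbers were not taken to pair the samples. With 2 libraries per group, the 95% interval of an interaction had a median half-width of 0.26 for genes with a mean log2 CPM of at least 2 before adjustment for the number of tests.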
